A study of Brassica rapa with 12 samples.

Results

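Chinese cabbage (Brassica rapa) plants in which the gene GIGANTEA had been edited (gi) were compared with wild-type plants of the same cultivar, Chiifu, after 1 h at 37 °C. The comparison used 6 of the 12 RNA-seq libraries of the series: 3 of gi and 3 of wild type, all from whole plants 2 weeks old that had grown on half-strength MS medium and were then heated. Unheated gi and wild-type plants (22 °C, 3 libraries each) served to show whether a difference was also there without heat. Flowering is late in gi and early in wild type, per the labels. They do not say which edit the plants carry, how many edited lines were used, or how many plants went into a library, so p-values measure no more than the spread among the sequenced libraries, and some of that spread may be technical.

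In plants, GIGANTEA takes part in the circadian clock and in flowering by day length, and in Arabidopsis it also acts in stress tolerance. Acute heat sets off the heat shock response, in which heat shock factors switch on genes for chaperones while many growth-related transcripts decline. The gene IDs of the files were not paired with names in the table at hand (0 of 47249 matched), so neither the GIGANTEA transcript nor heat shock, clock or flowering genes could be picked out, and the genotypes rest on the labels. Genes are therefore described by level, by size of difference, and by the chromosome and order that their IDs give. That order is a naming convention and was not checked against a genome.

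The heated libraries held 36778289 to 57777477 counts in genes. Levels are in CPM, counts per 1000000 after TMM scaling, a method that equalises most genes between libraries. Where a gene had no count, the limit of detection was taken as 3 counts in a library, or 0.0738 to 0.0964 CPM in the heated libraries. The 100 most abundant genes took 31.8% to 36.2% of the counts in gi and 33.8% to 34.8% in wild type. In a chi-square of counts over genes, gi replicate 1 stood at 69.5 and 84.4 per degree of freedom from the other gi libraries, which stood at 17.5 from each other. The wild-type pairs lay between 65.4 and 86.95. One unheated wild-type library, replicate 1, weighed on the shared fit, and counts that rest on it are given with and without it.

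Heated gi differed from heated wild type in 778 of 28846 tested genes, or 2.7% (edgeR quasi-likelihood test, adjusted p under 0.05): 373 were higher in gi (1.29%) and 405 lower (1.4%). Of these, 316 were at least 2-fold higher (1.1%) and 297 at least 2-fold lower (1.03%), and 20.4% of all tested genes had an unadjusted p under 0.05. They were of 3 kinds. Graded differences, where the gene had at least 1 CPM in all 6 heated libraries, made up 543 of the 778 calls, 245 higher and 298 lower in gi. On/off differences, with all 3 libraries of one genotype under 0.1 CPM and all 3 of the other at 1 CPM or more, made up 50, 25 each way. The remaining 185 were low or mixed, 103 higher and 82 lower, with a median log2 difference of 2.89 and -6.06.

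Pairing the libraries by replicate number, as a block in the fit, gave 276 higher and 265 lower genes, of which 360 were graded and 465 were also called without the block. Without any 1 of the 6 heated libraries 107 to 241 genes were higher and 105 to 301 lower. The count also moved with the unheated libraries of the fit: without wild type at 22 °C replicate 1 it was 955 higher and 1039 lower, and a fit of the 6 heated libraries alone gave 693 and 700.

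The on/off genes were mostly expressed at a modest level. By the same limits 77 genes qualified whether called or not, 0.267% of those tested: 27 were on in gi and off in wild type, and 50 were off in gi and on in wild type. Mean CPM in the genotype that had the gene ran from 1.22 to 69.6, with a median of 3.17, and 15 genes reached 10 CPM. Of the 50 genes off in gi, 30 had 0 counts in all 3 heated gi libraries, and of the 27 off in wild type, 12 had 0 counts in all 3 heated wild-type libraries.

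**Figure D1:**
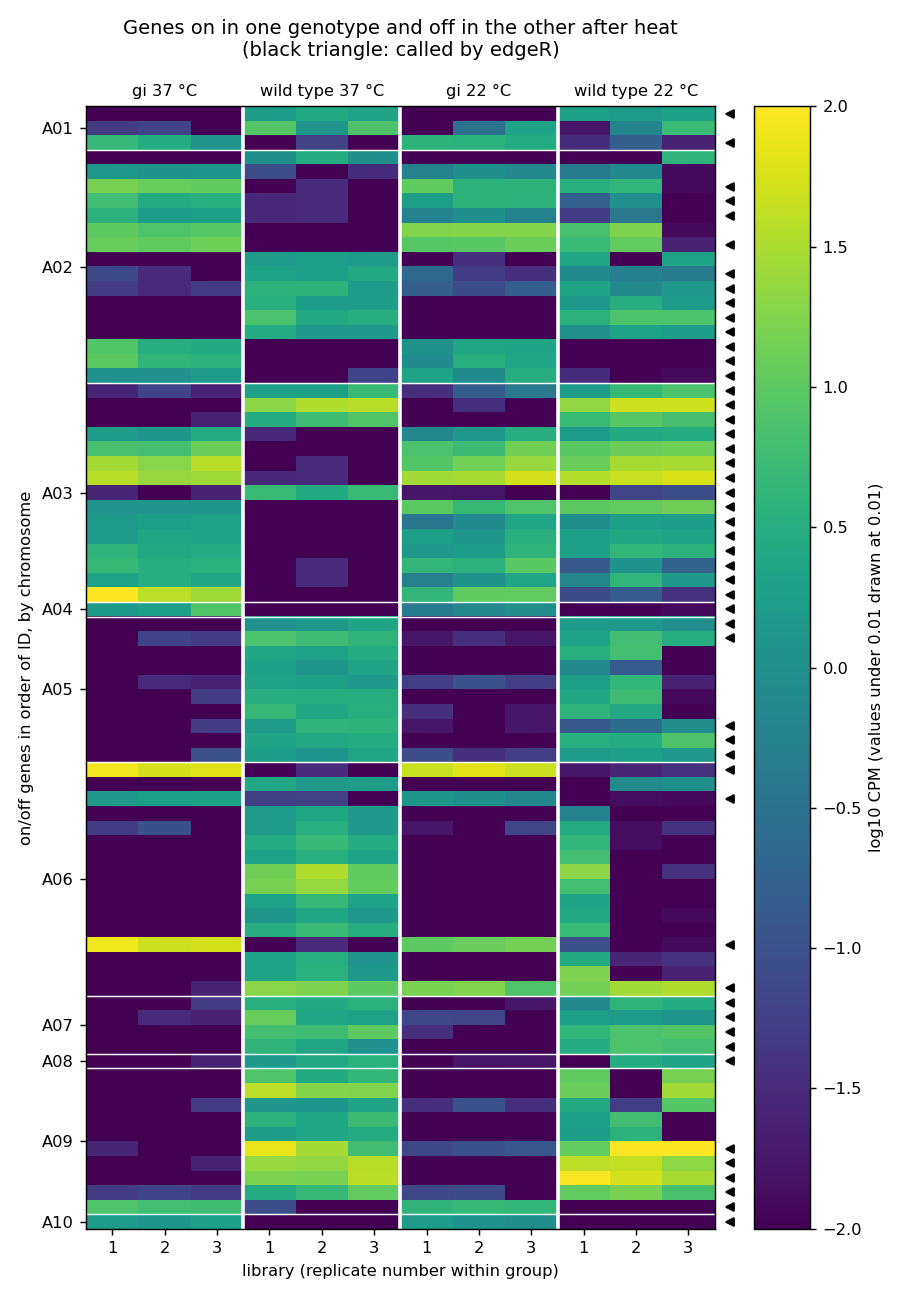
Colour shows log10 CPM of the 77 on/off genes (down, in order of ID within chromosomes) in the 12 libraries (across, by group and replicate number); values under 0.01 CPM are drawn at 0.01. Triangles mark the 50 genes called by edgeR. The heated groups split by construction, and in the unheated wild type whole sets of neighbouring rows are dark in 1 or 2 of the 3 libraries.

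The most abundant on/off gene higher in gi was BraA03g061390.3.5C, on chromosome A03. It had 142, 39.7 and 27.1 CPM in the heated gi libraries, against 0 counts in all 3 heated wild-type libraries. It was at least 757-fold higher in gi against 3 counts per library (edgeR adjusted p = 0.00164), and at least 363-fold higher without gi replicate 1. All gi libraries lay far above that limit, and replicate 1 was the highest by a wide margin. Without heat it had 4.33, 10.5 and 11.1 CPM in gi and 0.0829, 0.149 and 0.0377 CPM in wild type.

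BraA06g010900.3.5C, on A06, had 84.0, 55.2 and 63.1 CPM in heated gi, against 0, 0.0307 and 0 CPM in heated wild type, where a single count was found. The ratio was 6617 (95% counting interval 1188 to 261348, edgeR adjusted p = 1.31e-06). Its unheated levels were close to these, at 46.2, 65.8 and 47.2 CPM in gi and 0.0166 to 0.0377 CPM in wild type, so the gene was on in every gi library and nearly silent in every wild-type library.

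In the other direction, BraA09g060790.3.5C, on A09, had a single count over the heated gi libraries, against 73.7, 28.5 and 5.85 CPM in heated wild type. The ratio was 4009 (95% counting interval 720 to 158346, edgeR adjusted p = 0.0114). Without wild type replicate 1 the ratio was 1910 (343 to 75436). The wild-type libraries spread widely but none overlapped gi, and the call was lost when any 1 of the 3 heated gi libraries was left out. Without heat it had 0.0710 to 0.122 CPM in gi and 11.0, 337 and 159 CPM in wild type. BraA03g026250.3.5C, on A03, had 0 counts in heated gi, against 20.3, 32.9 and 37.6 CPM in heated wild type, at least 370.2-fold lower in gi (edgeR adjusted p = 0.00027). In unheated plants it was again absent or nearly so in gi, with at most 0.0342 CPM, against 21.6, 50.2 and 49.8 CPM in wild type.

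Without heat, 16 of the 50 genes that were off in gi and 4 of the 27 that were on in gi met the same limits between the genotypes. All 20 were among the called genes, whose calls come from a fit that includes the unheated libraries. Of the 25 called genes that were off in gi, 16 met the same limits between the unheated groups and 20 were called the same way at 22 °C (edgeR; the background of genes lower in gi at 22 °C was 0.562%). Of the 25 called genes that were on in gi, 4 met the limits at 22 °C and 11 were called (background 0.451%). No on/off gene was called the opposite way at 22 °C. Whether the share kept differed between the directions was not tested.

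Among the uncalled on/off genes the unheated wild-type libraries were mostly divided. Calls rest on a spread pooled over the 12 libraries, unheated wild type included, so call and division are not independent. Of the 27 genes that met the limits after heat but were not called, 23 were under 0.1 CPM in at least 1 unheated wild-type library and at 1 CPM or more in another, against 4 of the 50 called. All 27 were called when the fit used the 6 heated libraries alone. A uniform wild-type state after heat was required by the limits, so only the divided state without heat is an observation here.

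These genes lay in stretches. Taking on/off genes of one direction with at most 100 tested genes between neighbours and at least 3 members, 10 stretches held 47 of the 77 (a rule chosen after the data were examined). The longest list was on A06, where 11 genes lower in gi lay between BraA06g017840.3.5C and BraA06g026970.3.5C, among 439 tested genes. None of the 11 was called. All 11 were under 0.1 CPM in each of the 6 gi libraries and at 1 CPM or more in each of the 3 heated wild-type libraries. Among unheated wild-type libraries, replicate 1 had 10 of the 11 at 1 CPM or more, while replicates 2 and 3 had all 11 under 0.1 CPM. Their median in heated wild type was 2.06, 3.59 and 2.06 CPM, against 0 CPM in each gi library. In unheated wild type it was 4.29 CPM in replicate 1 and 0.00 CPM in replicates 2 and 3. Within the same span, 1 gene ran the other way, on in all 6 gi libraries and off in all 6 of wild type.

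Other stretches divided the unheated wild type differently. On A05, 7 genes lower in gi lay between BraA05g005910.3.5C and BraA05g008990.3.5C, and 5 of them were under 0.1 CPM in unheated wild type replicate 3 but none in replicates 1 or 2. On A09, 3 genes between BraA09g001780.3.5C and BraA09g003700.3.5C were under 0.1 CPM in unheated wild type replicate 2 and at 1 CPM or more in replicates 1 and 3. On A02, 4 genes higher in gi between BraA02g013710.3.5C and BraA02g015990.3.5C were all under 0.1 CPM in unheated wild type replicate 3, and 1 of them also in replicate 1. On/off genes of the A06 stretch were thus under 0.1 CPM in unheated wild type replicates 2 and 3. Most of those of the A05 stretch were so in replicate 3, and those of this A09 stretch in replicate 2. These on/off genes were 11 of 439 tested genes in the A06 span, 7 of 213 on A05 and 3 of 122 on A09.

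In 2 further stretches of genes lower in gi, 1 gene each divided the unheated wild type. BraA02g019200.3.5C, at the start of 3 genes on A02, had 2.29, 0 and 2.11 CPM in unheated wild type, and BraA09g060600.3.5C, at the start of 4 genes on A09, had 1.72, 3.70 and 0 CPM. In the remaining stretches no unheated wild-type library was under 0.1 CPM for any gene. On A03, 6 genes between BraA03g049360.3.5C and BraA03g052330.3.5C were off in the 3 heated wild-type libraries and in no other group: none was under 0.1 CPM in any gi library or any unheated wild-type library. A further 3 genes on A03, from BraA03g054150.3.5C to BraA03g054750.3.5C, met the same limits. Of these, BraA03g054510.3.5C was low in unheated wild type, at 0.133, 1.17 and 0.189 CPM, against 4.33, 3.66 and 9.42 CPM in unheated gi. Within the span of the 6 genes, 1 on/off gene ran the other way. It had 5.02, 2.79 and 5.17 CPM in heated wild type and at most 0.0257 CPM in heated gi. Toward the middle of the A03 order, 3 genes lower in gi, from BraA03g025450.3.5C to BraA03g026350.3.5C, were at 1 CPM or more in all 6 wild-type libraries. On A02, 3 genes lower in gi between BraA02g030490.3.5C and BraA02g033090.3.5C likewise were under 0.1 CPM in all 6 gi libraries and on in all 6 of wild type. Chromosomes A04, A08 and A10 had 1 on/off gene each, and A02 and A06 had 16 each.

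**Figure D2:**
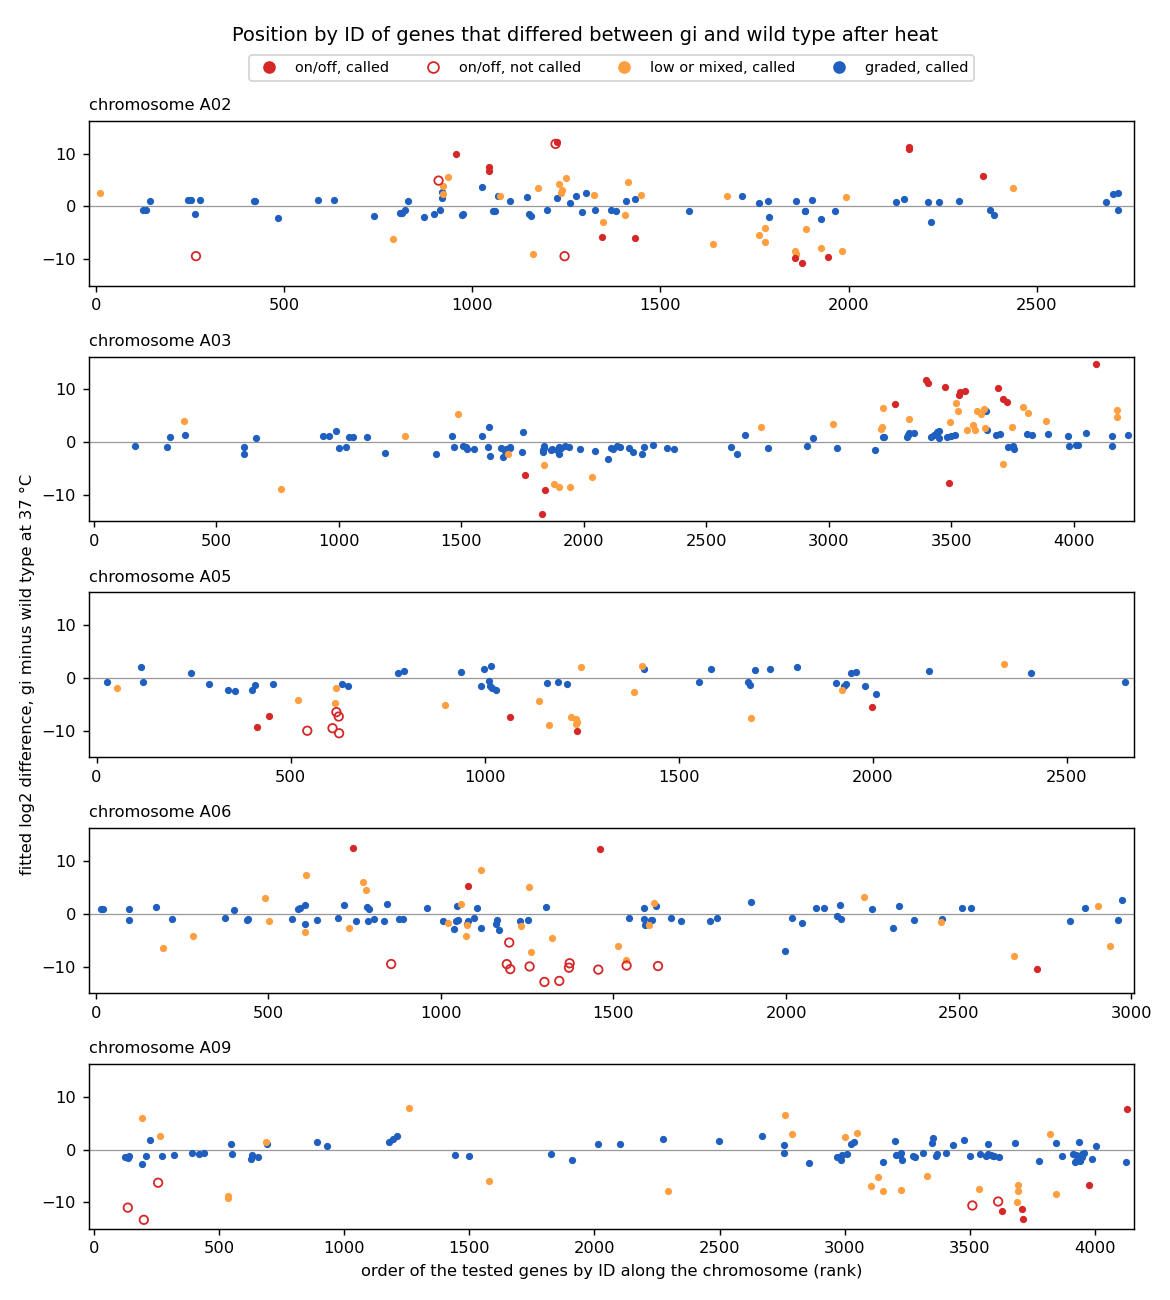
Fitted log2 difference (gi minus wild type at 37 °C) against the order of tested genes by ID on the 5 chromosomes with most on/off genes or stretches. Red points are on/off genes, open where not called; orange points are low or mixed genes and blue points graded genes. The 11 open circles grouped on A06 form the longest stretch.

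Called genes next to each other were a minority. Ordering tested genes by ID and allowing at most 2 uncalled genes between neighbours, 18 runs of at least 3 called genes held 67 genes, or 8.61% of the 778 called. Of these 67, 18 were higher and 49 lower in gi, 40 were graded, 23 low or mixed and 4 on/off. Genes in 8 runs were all lower in gi, those in 1 run all higher, and 9 runs held both directions. At 22 °C, 26 of the 67 genes in runs (38.8%) were called the same way, and 126 of the 711 scattered genes (17.7%). Of all tested genes 1.01% were called at 22 °C, in either direction. The sets differed in kind, since the scattered genes were 503 graded, 162 low or mixed and 46 on/off. Over all called genes 10.5% of graded, 34.6% of low or mixed and 62% of on/off genes were called the same way at 22 °C. Whether runs differed from scattered genes of like kind was not tested. With the replicate block runs held 40 genes, and without single libraries 3 to 379, the lowest without gi at 37 °C replicate 3 and the highest without wild type at 22 °C replicate 1. Values of near-identical neighbouring copies are uncertain, since their shared reads may not have been assigned, and so are those of overlapping genes, since the strand setting of the counting was not given.

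The run with most members lay on A03, where 6 of 7 successive tested genes from BraA03g026290.3.5C to BraA03g026350.3.5C were lower in gi. Within it 4 were graded, 1 was low or mixed and 1 was on/off, with log2 differences of -8.94 to -0.74. Its first gene had 38.8, 31.5 and 26.4 CPM in heated gi, against 131, 103 and 127 CPM in heated wild type (log2 difference -1.90, SE 0.22, edgeR adjusted p = 0.00193). Without heat that gene had 20.6, 16.4 and 16.9 CPM in gi and 18.1, 11.9 and 11.3 CPM in wild type, with no call. Only the low or mixed gene and the on/off gene of this run were also called at 22 °C, so the run joins differences seen at both temperatures and differences seen after heat.

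The next run, on A02 from BraA02g013760.3.5C to BraA02g013840.3.5C, had 4 genes higher and 1 lower in gi among 8 tested genes, and none was called at 22 °C. By its IDs it lay inside the A02 stretch of on/off genes higher in gi. The third run, also on A02, comprised 5 successive tested genes from BraA02g030490.3.5C to BraA02g030550.3.5C. Its 4 lower genes had 0 counts in all 6 gi libraries and were called at both temperatures, with wild-type levels of 0.768 to 3.16 CPM after heat. The fifth was graded and higher in gi, at 27.3, 17.1 and 18.5 CPM in heated gi, against 11.0, 10.2 and 10.7 CPM in heated wild type.

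Most of the genes that differed were graded and scattered. Outside runs there were 503 graded genes, 234 higher and 269 lower in gi. With the replicate block 284 of the 503 were still called in the fit of 12 libraries, 252 with the block within temperature and 190 in the fit of the 6 heated libraries. Graded genes as a whole were 2.75% of the 19739 tested genes with at least 1 CPM in all 6 heated libraries, close to the 2.7% of all tested genes that were called. Their differences were moderate: 356 of the 503 differed at least 2-fold, 74 at least 4-fold and 9 at least 8-fold. The median log2 difference was 1.22 for those higher (quartiles 1.02 and 1.67) and -1.15 for those lower (quartiles -1.48 and -0.86), against -0.02 over all genes tested. The 3 gi and 3 wild-type libraries did not overlap for any of the 503, and among all tested genes 30.6% did not overlap, 15.3% with gi higher and 15.3% with gi lower.

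Scattered graded genes that were higher in gi were less abundant than those lower. The mean over heated libraries had a median of 9.43 CPM for those higher and 25.4 CPM for those lower, against 16.6 CPM for all tested genes with at least 1 CPM in the 6 libraries. Of those higher, 6 of 234 (2.56%) reached 100 CPM, and of those lower, 34 of 269 (12.6%), against 9.24% of all such genes. The 234 genes higher in gi summed to 6781 CPM in heated gi, against 2427 CPM in heated wild type. The 269 genes lower in gi summed to 7348 CPM in heated gi, against 19402 CPM in heated wild type. Both sets were chosen by their difference in these libraries, so the direction of the sums follows from the choice, and their size in part.

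The largest scattered graded rise in gi was that of BraA03g053310.3.5C, on A03. It had 474, 263 and 228 CPM in heated gi, against 4.38, 5.31 and 5.43 CPM in heated wild type (log2 difference 5.99, SE 0.38, edgeR adjusted p = 7.57e-05). The mean was 63.7-fold higher in heated gi, and no library of one genotype came near those of the other. Without heat the genotypes overlapped, at 25.8, 13.5 and 16.0 CPM in gi and 23.0, 18.3 and 16.8 CPM in wild type. The genotype difference differed between the temperatures by 6.07 on the log2 scale (SE 0.47, edgeR adjusted p = 0.000965). By its ID the gene lies among the A03 genes that were off in heated wild type alone.

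BraA01g001600.3.5C, on A01, was higher in gi at both temperatures. It had 87.0, 79.3 and 61.0 CPM in heated gi, against 1.80, 3.04 and 2.18 CPM in heated wild type (log2 difference 5.02, SE 0.37, edgeR adjusted p = 0.000117). Unheated gi had 61.3, 130 and 126 CPM and unheated wild type 2.54, 1.93 and 3.18 CPM, so the groups were apart in all libraries.

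The largest scattered graded fall was that of BraA06g032400.3.5C, on A06, with 1.52, 2.27 and 2.73 CPM in heated gi, against 314, 229 and 281 CPM in heated wild type (log2 difference -6.98, SE 0.51, edgeR adjusted p = 0.000117). Heated wild type stood apart from every other group, since the unheated libraries had 2.14 to 2.81 CPM in gi and 1.97 to 7.82 CPM in wild type. Its genotype difference differed between the temperatures by -6.04 on the log2 scale (SE 0.61, edgeR adjusted p = 0.00299).

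BraA03g030180.3.5C, on A03, had 8.75, 9.60 and 9.39 CPM in heated gi, against 78.8, 68.5 and 111 CPM in heated wild type (log2 difference -3.22, SE 0.36, edgeR adjusted p = 0.00148). It was also lower in unheated gi, at 14.8 to 19.2 CPM, against 31.0, 91.5 and 78.8 CPM in unheated wild type (log2 difference -1.96, SE 0.34, edgeR adjusted p = 0.0272).

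**Figure D3:**
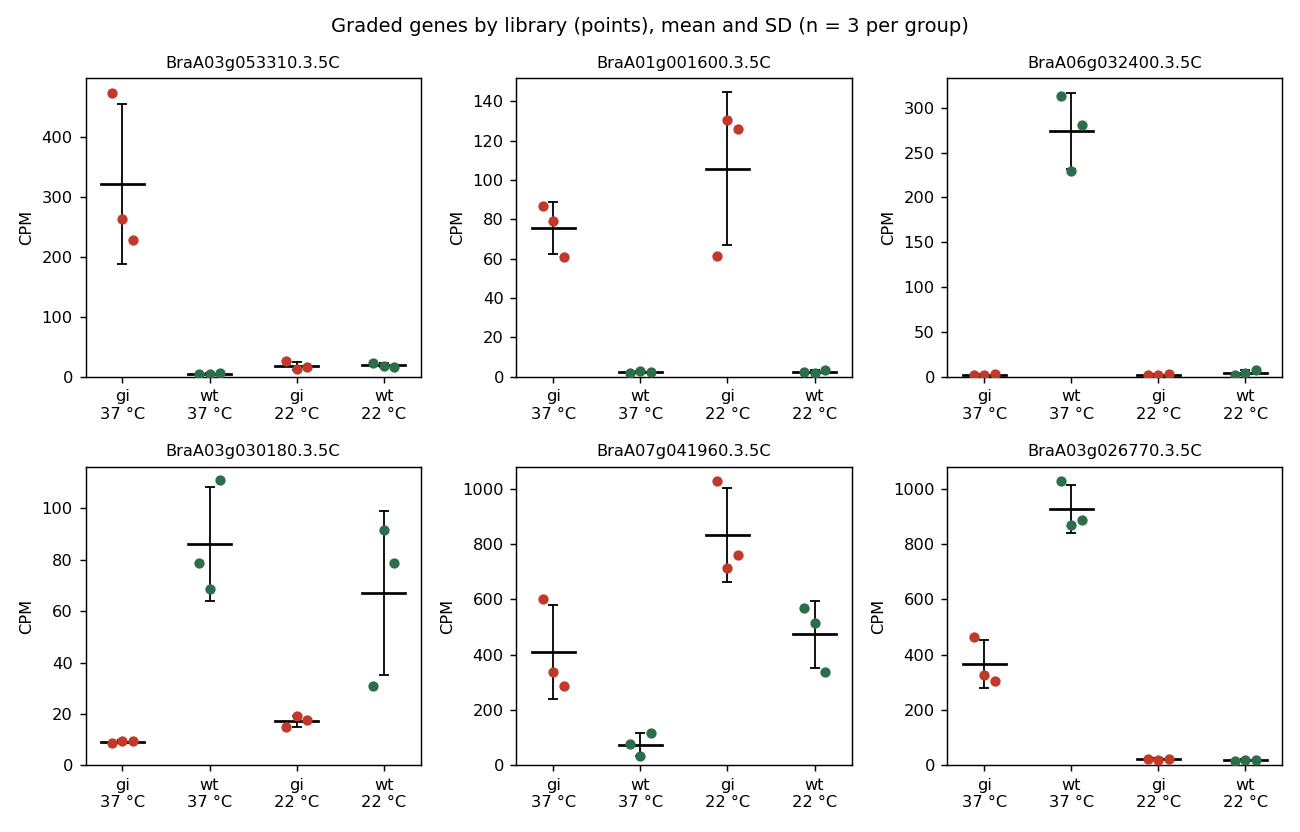
CPM of 6 scattered graded genes in each library (points), with the mean (bar) and SD (n = 3 per group) of gi and wild type at 37 °C and 22 °C. In BraA03g053310.3.5C and BraA06g032400.3.5C 1 heated group stands apart from the other 3 groups, while BraA01g001600.3.5C is separated by genotype at both temperatures.

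Abundant genes were also among those that differed. BraA07g041960.3.5C, on A07, had the highest mean of those higher in gi, with 602, 339 and 288 CPM in heated gi, against 75.7, 33.4 and 117 CPM in heated wild type (log2 difference 2.45, SE 0.46, edgeR adjusted p = 0.0208). Without heat it was higher, at 1028, 712 and 759 CPM in gi and 568, 514 and 338 CPM in wild type. Those libraries did not overlap by genotype, but the difference was not called (log2 difference 0.81, SE 0.43, edgeR adjusted p = 0.414). The difference after heat missed the threshold in the fit of the heated libraries with the replicate block (edgeR adjusted p = 0.0659). It also did so without gi replicate 1, gi replicate 2 or wild type replicate 1 at 37 °C. BraA03g026770.3.5C, on A03, was the most abundant of those lower in gi. It had 465, 327 and 304 CPM in heated gi, against 1028, 869 and 887 CPM in heated wild type (log2 difference -1.35, SE 0.23, edgeR adjusted p = 0.0140). Without heat both genotypes were far lower and overlapped, at 24.3, 18.9 and 23.8 CPM in gi and 15.1, 19.8 and 21.4 CPM in wild type. The call on this gene was lost without gi replicate 2, gi replicate 3 or wild type replicate 1 at 37 °C.

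The 503 scattered graded genes were chosen for a called difference after heat, so a smaller median without heat follows in part from the choice and is given as a description. Their median log2 difference at 22 °C was 0.31 for the 234 higher after heat (quartiles -0.00 and 0.73) and -0.35 for the 269 lower (quartiles -0.72 and -0.03), against -0.02 over all genes tested. The sign was the same at 22 °C for 175 of the 234 and 211 of the 269 genes (74.8% and 78.4%), against 59.5% of the uncalled genes with at least 1 CPM in the heated libraries. At 22 °C 292 genes were called in all (1.01% of those tested); 17 of the 234 were called higher (7.26%) and 32 of the 269 lower (11.9%). Over all 778 genes 152 were called the same way at 22 °C, and 92 with the replicate block. No libraries are shared by these contrasts, but their calls come from the same fit and share its estimate of spread per gene. Across the 503 genes the log2 differences at the temperatures correlated with Pearson's r = 0.664, across genes that are not independent replicates. On/off genes gave r = 0.861 over 50. Both sets leave out genes with small differences after heat, which can raise r. The values therefore do not measure agreement over all tested genes.

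**Figure D4:**
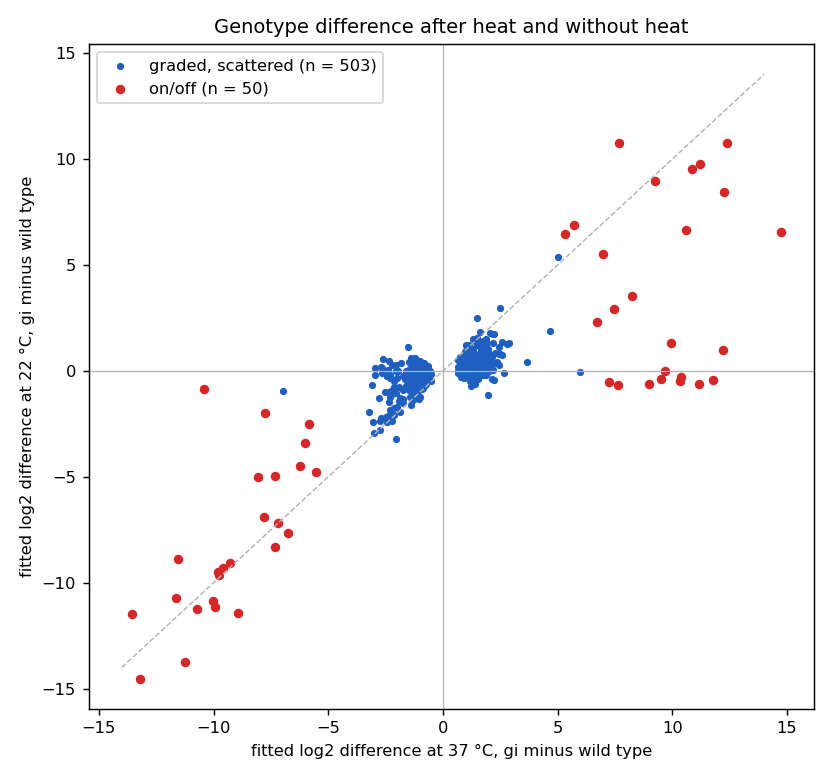
Fitted log2 difference between gi and wild type at 37 °C (across) and 22 °C (up) for the 503 scattered graded genes and the 50 called on/off genes; the dashed line marks equal differences. Most graded genes lie near 0 at 22 °C, while on/off genes lower in gi lie near the line and a group of those higher in gi lies at about 0 at 22 °C.

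The test of the difference between the temperatures called 34 genes in all (0.118% of those tested), 16 with the replicate block and 9 with a block within each temperature. Without single libraries it called 11 to 120 genes, the lowest without gi at 22 °C replicate 2 and the highest without wild type at 22 °C replicate 1. Of the called graded genes 11 were among the 34, 4 higher and 7 lower in gi after heat, and 3 of the 11 lay on A03. Of the on/off genes 8 were among them, 7 higher and 1 lower in gi, and 7 of these 8 lay on A03. A further 8 were low or mixed genes, all higher in gi, 6 of them on A03. For comparison, A03 held 4226 of the 28846 tested genes, 15 of the 50 called on/off genes and 102 of the 543 graded genes. Whether the share on A03 differed from these was not tested. None of the 9 scattered graded genes among the 34 was called between the unheated genotypes.

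The mean heat responses of the scattered graded genes, which share the heated libraries with the genotype contrast, are given side by side. For the 234 genes higher in gi, the log2 ratio of means at 37 °C over 22 °C (with 0.5 CPM added) had a median of 0.43 in gi and -0.45 in wild type. For the 269 genes lower in gi it was -0.33 in gi and 0.32 in wild type. Over all tested genes with at least 1 CPM in the heated libraries the medians were 0.00 in gi and 0.09 in wild type.

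Graded genes were spread over all 10 chromosomes but not evenly. They were 2.51% of the tested genes on A06, 2.45% on A02 and 2.41% on A03, and 0.948% on A08, against 1.88% over all. In windows of 500 tested genes, of which there were 56, the share ran from 0.365% to 6%, with a median of 1.6%. The window with the highest share lay on A03 from BraA03g021560.3.5C to BraA03g028630.3.5C, with 3 graded genes higher and 27 lower in gi. The window after it on A03 had 0 higher and 13 lower, while one farther on, from BraA03g043350.3.5C to BraA03g051340.3.5C, had 13 higher and 2 lower. On A09 the window from BraA09g058860.3.5C to BraA09g066280.3.5C had 4 higher and 20 lower. The direction of graded genes thus varied along A03.

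**Figure D5:**
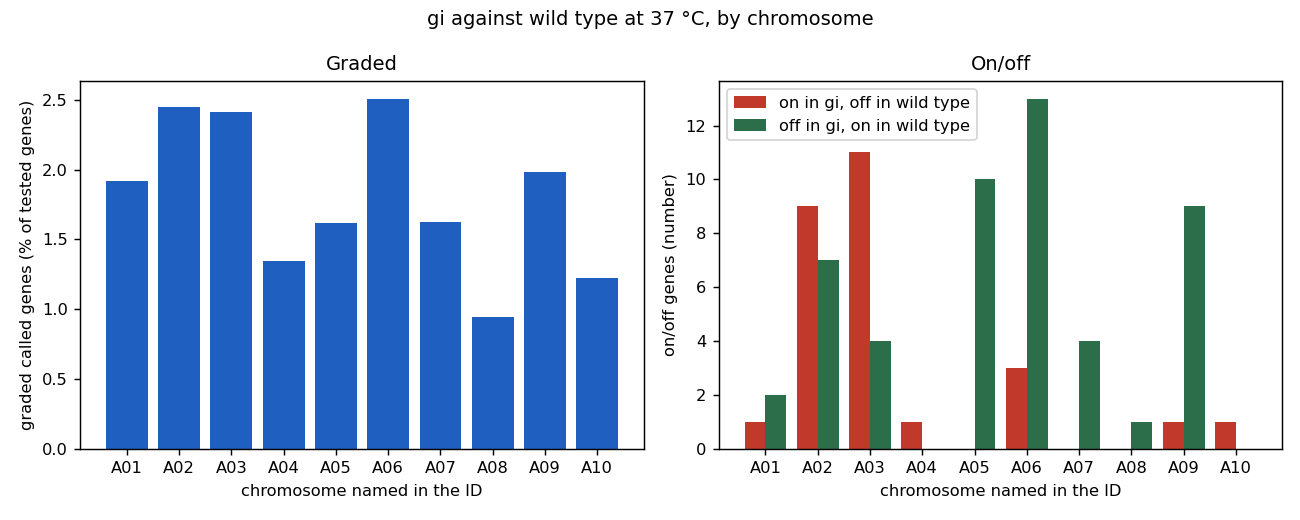
Left, graded genes called between gi and wild type at 37 °C as a percentage of tested genes on each chromosome; right, number of on/off genes by direction. Graded genes occur on all 10 chromosomes, at 0.948% to 2.51%. By number, on/off genes were most on A02, A03, A05, A06 and A09. These are counts, not shares: A02 had 16 among 2739 tested genes and A09 had 10 among 4136. Over all tested genes the share was 0.267%.

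Some graded genes lay near an on/off gene. An on/off gene lay within 25 tested genes for 79 of the 503 scattered graded genes (15.7%), 48 of the 185 low or mixed genes (25.9%) and 36 of the 77 on/off genes themselves (46.8%). Over all placed tested genes that were not on/off the share was 10.1%, and the differences between these shares were not tested. The greater part of the scattered graded genes therefore lay farther than 25 tested genes from any on/off gene.

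In gi replicate 1, which stood apart from the other gi libraries, scattered graded genes lay farthest from wild type in 62.4% of those higher and 43.1% of those lower. Over all tested genes with at least 1 CPM in the 6 heated libraries, that library was the highest gi library for 56.0% and the lowest for 31.1%. Without that library 141 of the 503 scattered graded genes and 42 of the 50 on/off genes were still called. Leaving out another heated gi library instead gave other counts: 147 and 42 without replicate 2, and 100 and 42 without replicate 3. Without a heated wild-type library they were 147 and 44 (replicate 1), 172 and 44 (replicate 2), and 240 and 45 (replicate 3). With the replicate block in the fit of 12 libraries 49 of the 50 on/off genes were still called. Fewer were kept with the block within temperature (36) and with the block in the 6 heated libraries (38).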

How the data were processed

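The authors deposited 1 table of raw counts per library, with whole reads per gene. Libraries came from a stranded mRNA kit (TruSeq) and a NovaSeq run, per the labels' protocols. The submitters' processing notes name TopHat2, HTSeq, FastQC and edgeR. For the genome build, annotation release and strand setting the sources used here give nothing. The 5 closing rows were left out. In the heated libraries the row for unaligned reads held 1.02 to 1.04 times all other rows together, and genes took 89.9% to 91.4% of those other rows.

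The tests used edgeR 4.0.16 in R 4.3.3, with filterByExpr (minimum count 10, minimum total 15), TMM scaling and a single quasi-likelihood fit of the 12 libraries by group (4 groups). P-values were adjusted by Benjamini-Hochberg over all 28846 genes tested. Each SE is the log2 difference divided by the square root of F. Alternatives included DESeq2 1.42.0 and fits without single libraries. Intervals and floors cover counting error only and leave out the spread among libraries. They treat counts as independent molecules, which PCR copies are not.

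Deviations from group means of heated libraries with the same replicate number (1, 2 and 3) correlated at 0.365, 0.115 and 0.178 over all tested genes. These values meet the limit of 0.1 set for pairing. However, gi replicate 2 and wild type replicate 3 correlated at 0.216, above the same-number values of replicates 2 and 3. The other pairs with different numbers lay between -0.323 and 0.0667. Over genes above 10 CPM the same-number value of replicate 2 was 0.0540, and gi replicate 2 with wild type replicate 3 gave 0.193. Whether the replicate numbers mark real pairs was not tested. Counts, classes and p-values come from the fit without a replicate term unless the block is named, and blocked values stand beside the counts they move. With the block in 12 libraries each named gene had a larger edgeR adjusted p. For BraA03g026250.3.5C it was 0.000556, and 0.0298 with the block in the 6 heated libraries. For BraA03g061390.3.5C these values were 0.0111 and 0.0247, while BraA09g060790.3.5C had 0.0331 and 0.00729.

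Named genes are the 2 most abundant on/off genes each way, the 2 largest scattered graded differences each way (no overlap, at least 10 CPM), the most abundant scattered graded gene each way, and the ends of the 3 runs with most genes. The ends of stretches and windows mark positions and were picked after their values were seen. The comparison, limits and rules were chosen with earlier results of these data known. Gene lists by name were not analysed here, since the gene table of assembly CAAS_Brap_v3.01 (51589 genes) matched no ID.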

Additional observations from a re-analysis of the deposited data

Results flagged for a closer look

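The genotype difference itself depended on temperature (test of the difference in edgeR) for 8 on/off genes, 11 graded genes and 8 low or mixed genes. Of the named genes, BraA03g053310.3.5C differed between the temperatures by 6.07 on the log2 scale and BraA06g032400.3.5C by -6.04.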

How the results depend on the processing

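With total counts in place of TMM, 727 genes were higher and 229 lower, 76.0% of the calls higher against 47.9% with TMM, and the median of all genes was 0.16 against -0.02; none of the 503 scattered graded genes changed sign in any alternative. DESeq2 called 1460 and 1486 genes, 2166 graded genes, 739 genes in runs, 556 the same way at 22 °C and 517 for the difference between temperatures. The fit of the 6 heated libraries called 693 higher and 700 lower, with 1042 graded genes and 219 genes in runs. With the replicate block in all 12 libraries 265 genes were lower, 360 graded, 40 in runs, 92 called the same way at 22 °C and 16 for the difference; with the block within temperature 40 lay in runs, 67 were called the same way at 22 °C (against 152 without a block) and 9 for the difference. The block in the 6 heated libraries gave 281 higher and 293 lower. With no filter on low counts 37 genes lay in runs. Runs held 38 genes with no uncalled gene allowed between neighbours and 151 with 5 allowed. On/off genes numbered 25 with limits of 0.05 and 2 CPM, 82 with limits in counts (at most 3 over one group, at least 10 per library of the other) and, chosen after seeing the data, 77 whether called or not. Graded genes numbered 222 with at least 10 CPM in all 6 libraries.

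Leaving out each of the 12 libraries in turn gave 107 to 955 genes higher, 105 to 1039 lower, 44 to 69 on/off, 114 to 1534 graded, 3 to 379 in runs, 61 to 279 called the same way at 22 °C and 11 to 120 for the difference; the highest values of all came without wild type at 22 °C replicate 1, and the cause was not tested. Of 210 values for the 10 named genes under alternatives, 200 kept their call, 10 missed the threshold and 0 changed sign. The folds of named on/off genes without single libraries were added after seeing the data. Levels under 0.1 CPM are a few counts, so at this depth absence is not shown.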
